A study of Mus musculus with 23 samples.

Results

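The Clcn5 intron cluster was followed here as 8 mature miRNAs, mmu-miR-501-3p, mmu-miR-501-5p, mmu-miR-500-3p, mmu-miR-532-5p, mmu-miR-532-3p, mmu-miR-362-5p, mmu-miR-362-3p and mmu-miR-188-5p, out of 1218 miRNAs counted in mouse liver. The cluster was chosen by the counts of miR-501-3p, which were much higher in livers of mice on a high-fat diet than in the reference group, and the other 7 were added by their position in the genome. The high-fat difference of miR-501-3p is therefore given as a description with no test, and the question was whether its cluster neighbours and its other arm differed too. All 8 were listed in the count table, and 7 of them passed the filter on low counts, the exception being miR-501-5p. In all, 386 of the 1218 miRNAs passed.

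Small RNA was sequenced from the livers of 23 male C57bl/6J mice of the third generation of a dietary lineage, 1 library per mouse, and the labels give no age. The reference group (labelled STD_Cont, n = 8) and the HFoleic group (HFD_Cont, n = 8) both came from the control lineage, bred with high-oleic sunflower oil added to the growing diet. The HFepa group (HFD_O3, n = 7) came from the omega 3 lineage, which received fish oil rich in EPA instead. HFoleic and HFepa mice were challenged with a high-fat, high-sucrose diet, and reference mice were fed a low-fat diet. HFoleic vs. reference thus compares diets within 1 lineage, HFepa vs. HFoleic compares lineages on 1 diet, and HFepa vs. reference changes both. The omega 3 lineage on the low-fat diet is not analysed here. Liver was taken whole, so fewer cells of a type and less of a miRNA per cell cannot be told apart.

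MicroRNAs are cleaved from the stem of a hairpin by Drosha and Dicer, and each hairpin can give a mature miRNA from its 5p arm and from its 3p arm. One arm is usually loaded into an Argonaute protein while the other is degraded, so arm balance is a property of each hairpin. Bases 2 to 8, the seed, do most of the pairing with target mRNAs, and miRNAs with the same seed share many predicted targets. Hairpins within an intron are often transcribed along with their host gene. The host here, Clcn5, encodes a chloride/proton exchanger of endosomes that is best known from kidney tubule cells.

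The cluster lies on the minus strand of the X chromosome, within Clcn5 (chrX:7153810-7319358, GRCm38). Its 5 hairpins span 10815 bases. In the order of transcription these are Mir532 (chrX:7248402-7248497), Mir188 (chrX:7247989-7248056), Mir362 (chrX:7241982-7242046), Mir501 (chrX:7241243-7241351) and Mir500 (chrX:7237683-7237774). Mir188 begins 441 bases after the first base of Mir532, Mir362 begins 6451 bases after it, Mir501 7146 bases and Mir500 10723 bases. Each of the 5 hairpins was intronic in all 3 GENCODE vM21 transcripts of Clcn5 that span it, and exonic in none.

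**Figure D1:**
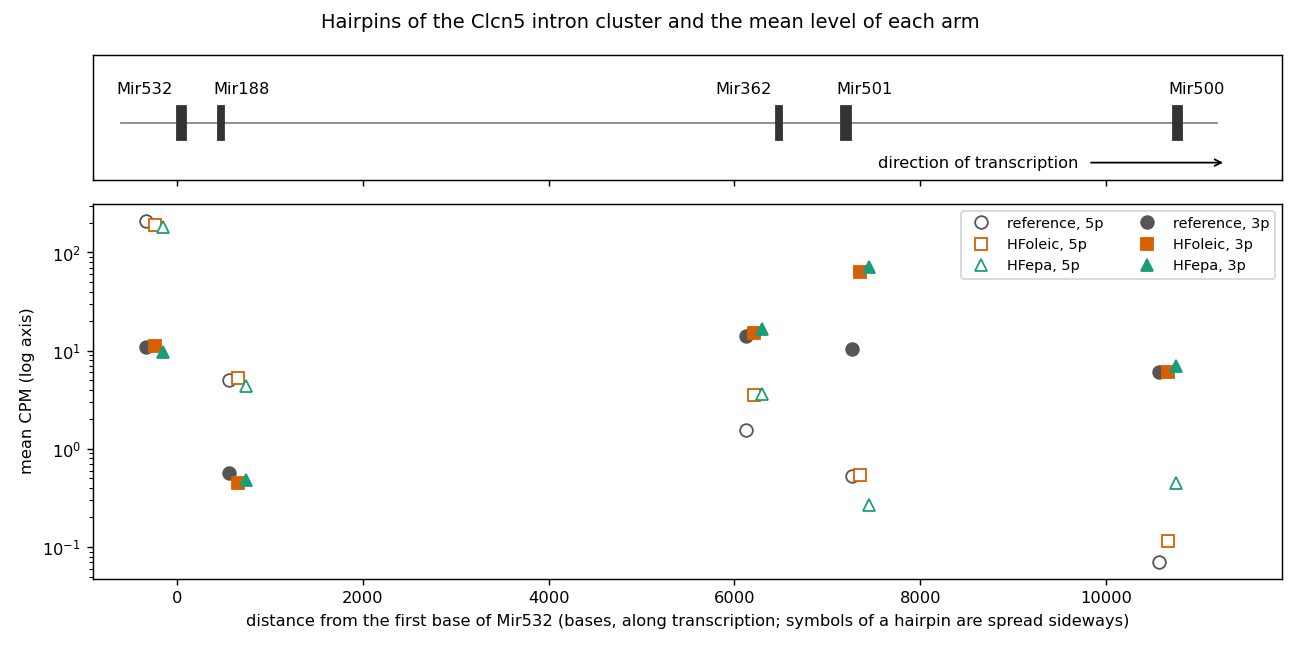
The upper panel places the 5 hairpins by distance in bases from the first base of Mir532, along the direction of transcription, and the lower panel gives the mean CPM of each 5p arm (open symbols) and 3p arm (filled symbols) in reference (circles, n = 8), HFoleic (squares, n = 8) and HFepa (triangles, n = 7) on a log axis. The 3p arm of mir-501 stands at 10.3 CPM in reference and at 63.6 and 71.3 CPM in HFoleic and HFepa, whereas both arms of mir-532 stay close together across the 3 groups.

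The mature sequences show which members could be mistaken for one another and which share a seed. They are printed 5′ to 3′ from RefSeq (GRCm38.p6), with the seed in capitals, and 7 of the 8 members had an entry.
mmu-miR-501-3p: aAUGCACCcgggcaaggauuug
mmu-miR-500-3p: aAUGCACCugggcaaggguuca
mmu-miR-362-3p: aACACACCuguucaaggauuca
mmu-miR-532-3p: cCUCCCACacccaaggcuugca
mmu-miR-501-5p: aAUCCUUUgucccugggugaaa
mmu-miR-362-5p: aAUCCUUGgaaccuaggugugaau
mmu-miR-188-5p: cAUCCCUUgcaugguggaggg
MiR-501-3p and miR-500-3p share the seed AUGCACC and 18 of their 22 bases. The 4 differences, counted from the 5′ end with the base of miR-501-3p first, are C9U, A18G, U21C and G22A. Among all mature entries aligned at the 5′ end, miR-500-3p was the nearest to miR-501-3p, with 4 mismatches, and also the nearest to miR-362-3p, with 5 mismatches. MiR-501-5p, miR-362-5p, miR-532-3p and miR-188-5p had at least 8 mismatches to any other mature entry. MiR-362-5p shares its seed AUCCUUG with miR-500-5p, the other arm of the Mir500 hairpin. MiR-362-3p shares its seed with miR-329-3p, which had 21 counts over all 23 libraries and was not tested, and the seed of miR-188-5p recurs in miR-7061-3p, for which no value is given here.

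The 2 arms of Mir501 face each other across the stem. The hairpin is printed here with its arms in capitals, the 5p arm first, because the level of one arm differed so much from that of the other.
Mir501: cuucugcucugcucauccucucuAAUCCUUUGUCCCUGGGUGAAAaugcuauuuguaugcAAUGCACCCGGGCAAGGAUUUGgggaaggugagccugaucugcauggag

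The depth behind these values was 5242218 to 8139344 miRNA counts per library in reference, 4340903 to 7220112 in HFoleic and 3725432 to 4947990 in HFepa. Levels are given as CPM, counts scaled to a common library total with TMM factors (trimmed mean of M-values). Groups were compared with the quasi-likelihood test of edgeR, and p-values were adjusted by Benjamini-Hochberg over all 386 miRNAs. A call required both an adjusted p below 0.05 and a log2 fold change (log2 FC) beyond 0.25 in either direction. No pair of libraries within a group agreed within sampling noise (chi-square per degree of freedom of at least 31.9 over 77 pairs). This check can only find the same library sequenced again. Each library was taken as 1 replicate because each came from 1 mouse, and the fit took no account of litter. Hepatocyte miRNAs, a list led by miR-122-5p, summed to between 187922 and 357628 CPM, and none of the 5 was called in any comparison. Of all 386 miRNAs, 12.4% were called in HFoleic vs. reference, 15.8% in HFepa vs. reference and 0% in HFepa vs. HFoleic.

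MiR-501-3p, studied for its part in muscle progenitor cells, had 51 to 106 counts per library in reference, at 7.81 CPM in the lowest, a median of 10.4 and 15.4 in the highest library. HFoleic libraries ran from 9.62 CPM through a median of 69.9 to 146, and HFepa libraries from 24.3 CPM through a median of 82.1 to 95.6. All 7 HFepa libraries lay above the highest reference library, but only 5 of the 8 HFoleic libraries did. Reference averaged 10.3 ± 2.34 CPM (SD, n = 8), HFoleic 63.6 ± 49.3 CPM (SD, n = 8) and HFepa 71.3 ± 26.5 CPM (SD, n = 7). Fitted log2 FC against reference was 2.62 in HFoleic and 2.79 in HFepa, or 6.14-fold and 6.90-fold, and both use the same reference libraries.

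The high HFoleic values were split by library number, the number in each library's label, whose meaning the labels do not give. Reference held libraries 1 to 8, HFoleic held 9 to 15 and 23, and HFepa held 16 to 22. MiR-501-3p stood at 9.62, 11.6 and 14.8 CPM in HFoleic libraries 9, 10 and 11, all inside the reference range. It stood at 82.4, 100.4, 146, 86.4 and 57.4 CPM in HFoleic libraries 12, 13, 14, 15 and 23. No HFoleic library fell between 14.8 and 57.4 CPM and the mean, 63.6 CPM, lies near 1 of the 8, library 23. Pooled over groups, libraries 1 to 11 averaged 10.8 ± 2.42 CPM (SD, n = 11) and libraries 12 to 23 averaged 80.9 ± 30.2 CPM (SD, n = 12), with no overlap.

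Diet and library number coincide except in HFoleic libraries 9 to 11, and reference has no library above number 11. With a term for library numbers 12 to 23 in the fit, the log2 FC of miR-501-3p was 0.22 for HFoleic vs. reference and -0.19 for HFepa vs. reference. Within libraries 1 to 11 alone it was 0.23 for HFoleic vs. reference. Of the 386 miRNAs, 2.85% did not overlap between libraries 1 to 11 and 12 to 23 (1.55% higher and 1.3% lower in 12 to 23), and miR-501-3p was the only member of the cluster among the 6 higher ones, with none among the lower. Whether the number marks an order of preparation, of collection or neither was not tested, nor was an exchange of labels between libraries, under which the HFoleic values and fold changes would mean something else. In the fit with this term, 1 of the 386 miRNAs was called in HFoleic vs. reference and 0 in HFepa vs. reference.

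**Figure D2:**
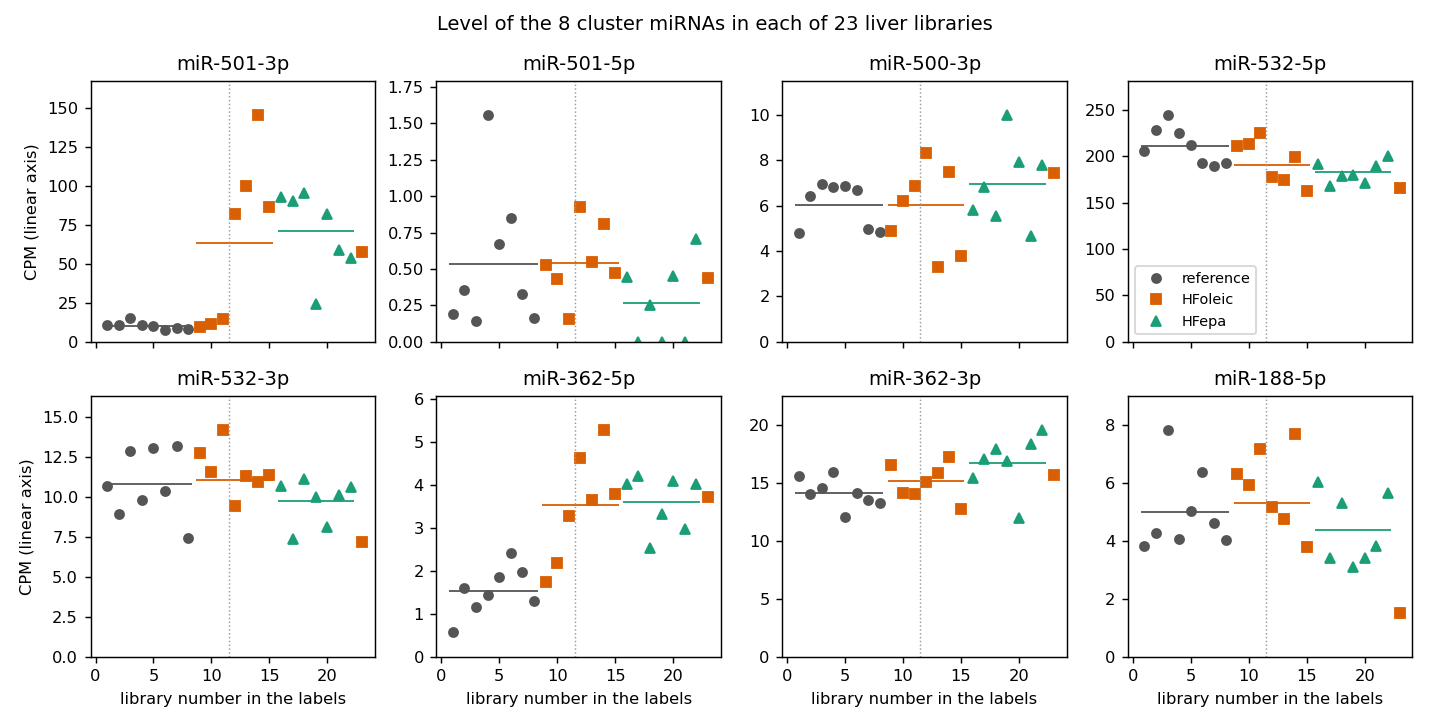
Each panel plots the CPM of 1 of the 8 cluster miRNAs (linear axis from 0) against the library number, with reference as circles, HFoleic as squares and HFepa as triangles. Horizontal lines are group means, the HFoleic line including library 23, and the dotted line separates library 11 from library 12. MiR-501-3p jumps between libraries 11 and 12, miR-362-5p is higher on the right with overlap, and no other panel steps up at library 12.

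The other arm of the same hairpin, miR-501-5p, was barely detected. It had 1 to 13 counts per library in reference, 1 to 5 in HFoleic and 0 to 3 in HFepa, or 30, 23 and 8 counts in all. No library of any group reached the level of the filter (1.91 CPM), the highest being reference library 4 with 1.56 CPM. In HFepa 3 libraries had none, and a count of 0 allows up to 3 counts. Fitted on all 1218 miRNAs without the filter, miR-501-5p gave a log2 FC of -0.02 for HFoleic vs. reference (95% interval -1.11 to 1.06, adjusted p = 1 by edgeR). For HFepa vs. reference it was -0.97 (95% interval -2.29 to 0.36, adjusted p = 0.468 by edgeR). The single highest library was thus a reference library, and no high-fat difference of the 5p arm was detectable at this depth.

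As a share of both arms, the 3p arm of mir-501 made up 94.97 ± 4.25% of the reads (SD, n = 8) in reference, 98.3 ± 1.75% (SD, n = 8) in HFoleic and 99.6 ± 0.470% (SD, n = 7) in HFepa, and no test is given since miR-501-3p chose the cluster. The lowest share, 87.3% in reference library 4, rested on 102 reads (95% Wilson interval 79.4% to 92.4%). Such intervals cover counting error only, because reads without molecular identifiers are not independent molecules. The 3p arm was dominant in every library.

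Of the 7 neighbours, 6 passed the filter, and 1 of these 6, miR-362-5p, was called in HFoleic vs. reference, where 12.4% of all 386 miRNAs were called (4.92% higher and 7.51% lower). The same 1 of 6 was called in HFepa vs. reference, where 15.8% of all miRNAs were called (5.18% higher and 10.6% lower). As 1 call in 6 is near these shares, the count says nothing particular about the neighbours as a set. Their median log2 FC was 0.06 in HFoleic vs. reference and 0.02 in HFepa vs. reference, beside medians of -0.00 and -0.06 over all 386 miRNAs. The 2 comparisons share the reference libraries and are not independent of each other.

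MiR-362-5p, studied mostly in tumour cells, was the only neighbour called, as higher in both high-fat groups in the fit without the library number term. Its 3 to 17 counts per reference library gave 0.573 CPM in the lowest, a median of 1.52 and 2.41 in the highest library. HFoleic libraries (10 to 26 counts) ran from 1.75 CPM through a median of 3.68 to 5.27, and HFepa libraries (10 to 18 counts) from 2.53 CPM through a median of 4.01 to 4.203. HFepa and reference did not overlap, and 6 of 8 HFoleic libraries lay above every reference library.

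MiR-362-5p averaged 1.54 ± 0.561 CPM in reference (SD, n = 8), 3.53 ± 1.16 CPM in HFoleic (SD, n = 8) and 3.59 ± 0.655 CPM in HFepa (SD, n = 7). The log2 FC was 1.17 (SE 0.23, 95% interval 0.69 to 1.65, adjusted p = 0.00600 by edgeR) for HFoleic and 1.20 (SE 0.24, 95% interval 0.70 to 1.71, adjusted p = 0.00285 by edgeR) for HFepa, or 2.25-fold and 2.30-fold. MiR-362-5p passed the filter through the high-fat groups, since 2 of 8 reference libraries but 7 of 8 HFoleic and 7 of 7 HFepa libraries reached its level. Fitted without the filter, it was still called in both (adjusted p = 0.0188 and 0.0101 by edgeR).

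Within HFoleic, miR-362-5p was also higher in libraries 12 to 15 and 23 than in 9 to 11, at a smaller size than miR-501-3p. Libraries 9, 10 and 11 held 1.75, 2.17 and 3.28 CPM, and libraries 12 to 15 and 23 held 3.65 to 5.27 CPM, so that the ranges did not overlap. Library 11 already lay above the highest reference library, 2.41 CPM, which was not so for miR-501-3p. With the library number term the log2 FC was 0.63 for HFoleic (adjusted p = 0.415 by edgeR) and 0.40 for HFepa (adjusted p = 0.841), and neither was called. In libraries 1 to 11 alone it was 0.63 (adjusted p = 0.662 by edgeR, 3 HFoleic against 8 reference libraries). Across HFoleic, 18.7% of all 386 miRNAs did not overlap between these library numbers, 9.59% being higher and 9.07% lower in libraries 12 to 15 and 23. Among the 6 tested neighbours it was 3, miR-362-5p being higher and both arms of mir-532 lower.

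The opposite arm, miR-362-3p, is the more abundant product of that hairpin. Its libraries spanned 12.1 to 15.9 CPM (median 14.2) in reference, 12.8 to 17.2 CPM (median 15.4) in HFoleic and 12.01 to 19.6 CPM (median 17.1) in HFepa, and the 3 groups overlapped. Means were 14.2 ± 1.26 CPM (SD, n = 8), 15.2 ± 1.47 CPM (SD, n = 8) and 16.8 ± 2.47 CPM (SD, n = 7). The log2 FC of 0.10 for HFoleic (95% interval -0.10 to 0.30, adjusted p = 0.508 by edgeR) did not pass. The log2 FC of 0.24 for HFepa (95% interval 0.04 to 0.44, adjusted p = 0.0956 by edgeR) did not pass either, although 5 of 7 HFepa libraries lay above the reference range. HFepa library 20, at 12.01 CPM the lowest of its group, decided this: without it the log2 FC was 0.31 and miR-362-3p was called (adjusted p = 0.0312 by edgeR).

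The arm balance of mir-362 differed accordingly. The 3p arm gave 90.1 ± 3.62% of the reads of both arms in reference (SD, n = 8, 83 to 145 reads per library), 81.4 ± 5.002% in HFoleic (SD, n = 8) and 82.1 ± 4.41% in HFepa (SD, n = 7). The difference from reference was -8.79 points in HFoleic and -8.07 points in HFepa, so the share fell in both (adjusted p = 0.00653 for each, two-sided exact permutation tests adjusted over 6 tests). HFepa and HFoleic differed by 0.72 points (adjusted p = 0.770, exact permutation test), and by 3.56 points within libraries 12 to 23 alone (adjusted p = 0.268, exact permutation test). This share does not depend on the scaling between libraries, but it rests on the same miR-362-5p counts as the call above and is no independent evidence of it. HFoleic libraries 9 to 11 averaged 86.1 ± 4.73% (SD, n = 3) and libraries 12 to 15 and 23 averaged 78.5 ± 2.38% (SD, n = 5). In libraries 1 to 11 alone HFoleic differed from reference by -4.05 points (adjusted p = 0.230, exact permutation test).

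**Figure D3:**
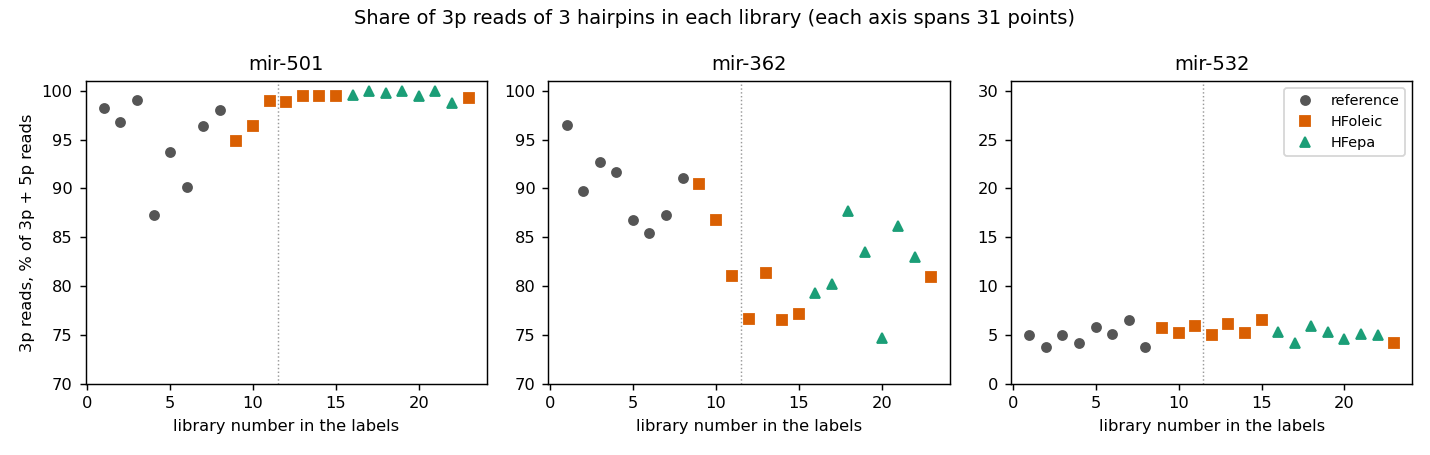
Each panel plots the 3p reads as a percent of the 3p and 5p reads of 1 hairpin against the library number, for reference (circles), HFoleic (squares) and HFepa (triangles). The axes of mir-501 and mir-362 start at 70% and that of mir-532 starts at 0, and all 3 span the same number of points. The mir-362 share is lower in most high-fat libraries, 81.4% and 82.1% against 90.1% on average, and the mir-532 share stays near 5%.

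MiR-532-5p, studied as a regulator of RUNX3 in tumour cells, was the most abundant member. Reference libraries ran from 189 CPM through a median of 209 to 244, HFoleic libraries from 162 CPM through a median of 188.3 to 225, and HFepa libraries from 167 CPM through a median of 179 to 200.2. The high-fat values were on the low side, with 4 of 8 HFoleic and 5 of 7 HFepa libraries below every reference library. The log2 FC was -0.15 for HFoleic (SE 0.08, 95% interval -0.30 to 0.01, adjusted p = 0.218 by edgeR) and -0.21 for HFepa (SE 0.08, 95% interval -0.38 to -0.05, adjusted p = 0.0679 by edgeR), so neither passed.

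Here too the library number divided HFoleic. Libraries 9 to 11 averaged 216 ± 7.60 CPM (SD, n = 3), close to the 211 ± 19.9 CPM of reference (SD, n = 8), and libraries 12 to 15 and 23 averaged 176 ± 14.4 CPM (SD, n = 5) with no overlap. With the library number term the log2 FC of miR-532-5p was 0.03 for HFoleic and 0.09 for HFepa, reversing both signs.

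MiR-532-3p, the minor arm, averaged 10.8 ± 2.11 CPM in reference (SD, n = 8), 11.1 ± 2.10 CPM in HFoleic (SD, n = 8) and 9.74 ± 1.42 CPM in HFepa (SD, n = 7). The lowest and highest libraries were 7.45 and 13.2 CPM in reference (median 10.5), 7.20 and 14.2 CPM in HFoleic (median 11.3), and 7.36 and 11.1 CPM in HFepa (median 10.2). Within HFoleic, libraries 12 to 15 and 23 (10.1 ± 1.78 CPM, SD, n = 5) lay below libraries 9 to 11 (12.9 ± 1.32 CPM, SD, n = 3). The 3 groups overlapped widely, with a log2 FC of 0.04 for HFoleic (95% interval -0.24 to 0.33, adjusted p = 0.887 by edgeR) and -0.15 for HFepa (95% interval -0.45 to 0.15, adjusted p = 0.565 by edgeR). The 3p arm gave 4.88 ± 0.977% of the mir-532 reads in reference (SD, n = 8), 5.49 ± 0.743% in HFoleic (SD, n = 8) and 5.05 ± 0.539% in HFepa (SD, n = 7). None of the 3 differences in this share passed (adjusted p = 0.342 and 0.770 for HFoleic and HFepa against reference and 0.342 between the high-fat groups, exact permutation tests).

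MiR-500-3p, which shares the seed of miR-501-3p, was called in no comparison. Its libraries ran from 4.77 CPM through a median of 6.55 to 6.95 in reference, from 3.29 CPM through a median of 6.55 to 8.32 in HFoleic, and from 4.66 CPM through a median of 6.83 to 9.99 in HFepa. HFoleic libraries lay on both sides of the reference range, 3 above it and 2 below it, and their mean, 6.04 ± 1.85 CPM (SD, n = 8), was the same to 3 digits as that of reference, 6.04 ± 0.994 CPM (SD, n = 8). The log2 FC was -0.00 for HFoleic (95% interval -0.38 to 0.38, adjusted p = 0.9996 by edgeR) and 0.20 for HFepa (95% interval -0.20 to 0.59, adjusted p = 0.571 by edgeR). As the 2 differ at only 4 of 22 bases, reads that match both within the mismatches the authors' alignment allowed could have been placed with either, and this was not tested.

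MiR-188-5p, known from work on the choice between bone and fat cell fates in marrow stroma, had 7 to 54 counts per library. Its libraries ran from 3.82 CPM through a median of 4.45 to 7.82 in reference, from 1.53 CPM through a median of 5.55 to 7.70 in HFoleic, and from 3.09 CPM through a median of 3.81 to 6.04 in HFepa. The groups overlapped. No high-fat library lay above the reference range, and 2 of 8 HFoleic and 4 of 7 HFepa libraries lay below it. The log2 FC was 0.08 for HFoleic (95% interval -0.40 to 0.57, adjusted p = 0.849 by edgeR) and -0.19 for HFepa (95% interval -0.71 to 0.32, adjusted p = 0.701 by edgeR).

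The other arms of these hairpins that the table lists, miR-500-5p and miR-188-3p, were near the limit of detection. MiR-500-5p had 0 to 5 counts per library, 4, 5 and 13 counts in all in reference, HFoleic and HFepa. MiR-188-3p had 0 to 6 counts per library, 28, 20 and 14 in all. Neither passed the filter. Fitted on all 1218 miRNAs without it, miR-500-5p had a log2 FC of 2.23 for HFepa vs. reference (95% interval 0.58 to 3.89, adjusted p = 0.134 by edgeR) and 1.73 for HFepa vs. HFoleic (95% interval 0.09 to 3.37, adjusted p = 0.750 by edgeR). Both intervals exclude 0, but neither value passed after adjustment, and with so few counts the fitted sizes depend on the prior count. For HFoleic vs. reference its log2 FC was 0.50 (95% interval -1.22 to 2.23), and the 3 intervals of miR-188-3p all included 0.

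**Figure D4:**
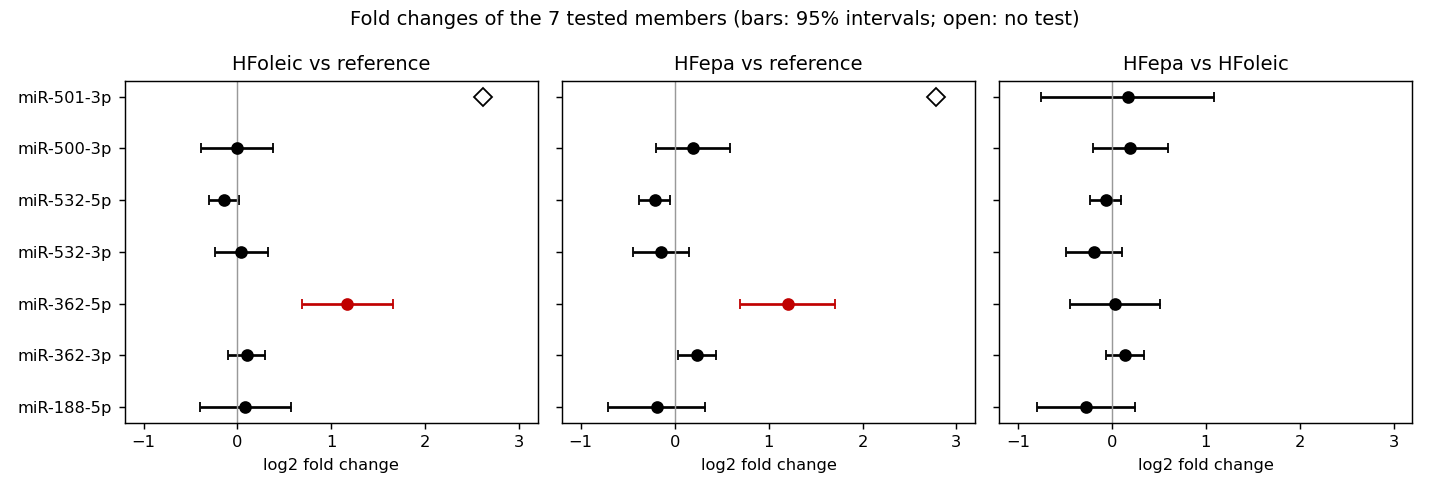
Points are log2 fold changes of the 7 members that passed the filter, for each high-fat group against reference and for HFepa against HFoleic. Bars are approximate 95% intervals computed from the edgeR fit. Open diamonds mark miR-501-3p against reference (2.62 and 2.79), which chose the cluster and has no test, and coloured points mark the calls of miR-362-5p (1.17 and 1.20). In the right panel every interval includes 0.

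Between the lineages on the high-fat diet, HFepa vs. HFoleic, 0 of the 7 tested members were called by edgeR, and 0% of the 386 miRNAs were. At an unadjusted p under 0.05 the counts were 0 of 7 members and 22 of 386 miRNAs, and DESeq2 and limma also called 0. MiR-501-3p had a log2 FC of 0.17 (SE 0.45, 95% interval -0.76 to 1.09, adjusted p = 0.968 by edgeR), the widest interval among the 7 members. Within libraries 12 to 23 alone, which hold 5 HFoleic and 7 HFepa libraries, the log2 FC was -0.41 (adjusted p = 0.875 by edgeR). The sign thus turned with the libraries used and neither value passed.

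For miR-362-5p the log2 FC between lineages was 0.03 (95% interval -0.45 to 0.51, adjusted p = 0.968 by edgeR). For miR-532-5p it was -0.07 (95% interval -0.23 to 0.10), for miR-532-3p -0.19 (95% interval -0.49 to 0.11) and for miR-362-3p 0.14 (95% interval -0.06 to 0.34). MiR-500-3p, at 0.20 (95% interval -0.20 to 0.60), and miR-188-5p, at -0.28 (95% interval -0.80 to 0.24), had wider intervals on fewer counts. Adjusted p-values of these 5 lay between 0.901 and 0.968 by edgeR.

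In some libraries several members were high together and in others they parted. HFoleic library 14 held the highest miR-501-3p of all, 146 CPM, and also the highest miR-362-5p, 5.27 CPM, and the highest HFoleic values of miR-362-3p (17.2 CPM) and miR-188-5p (7.70 CPM). HFepa library 19 held the lowest miR-501-3p of its group, 24.3 CPM, yet the highest miR-500-3p of all libraries, 9.99 CPM, and a miR-532-5p of 179 CPM at the median of the group.

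The miRNAs whose profile was most like that of miR-501-3p lay outside the cluster. Likeness was measured as the root mean square (RMS) difference between log2 CPM profiles over the 23 libraries, each centred on its own mean, among 385 miRNAs. The profile of miR-501-3p itself is 1.47 log2 units from a flat line on this measure. Nearest were miR-100-5p (RMS difference 0.357), miR-99b-5p (0.515), miR-125b-5p (0.884), miR-99a-5p (0.908) and miR-221-5p (0.972). MiR-100-5p, miR-99a-5p and miR-99b-5p belong to the miR-99/100 family, known for repressing mTOR. MiR-125b-5p comes from hairpins that lie near those of that family, and miR-221-5p is the minor arm of a hairpin on the X chromosome. Their sequences are shown because 3 of the 5 share a seed.
mmu-miR-100-5p: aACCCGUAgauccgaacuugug
mmu-miR-99a-5p: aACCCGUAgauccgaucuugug
mmu-miR-99b-5p: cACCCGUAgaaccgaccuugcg
mmu-miR-125b-5p: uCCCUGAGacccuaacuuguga
mmu-miR-221-5p: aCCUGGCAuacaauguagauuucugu

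Among cluster members, miR-362-5p came the nearest at rank 8 of 385 (1.04), followed by miR-362-3p at rank 78 (1.41). MiR-500-3p was at rank 187, miR-532-3p at 239, miR-532-5p at 260 and miR-188-5p at 281 (1.61), so those 4 were farther from miR-501-3p than a flat line. Since these ranks use the same libraries that chose miR-501-3p, they are a description.

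MiR-100-5p averaged 209 ± 31.4 CPM (SD, n = 8) in reference, 179 ± 10.1 CPM (SD, n = 3) in HFoleic libraries 9 to 11, 1262 ± 451 CPM (SD, n = 5) in HFoleic libraries 12 to 15 and 23, and 922 ± 427 CPM (SD, n = 7) in HFepa. MiR-99b-5p followed the same order, with 688 ± 128, 586 ± 112, 3074 ± 1584 and 2532 ± 1123 CPM (SD, same n). HFepa library 19 was the lowest of its group for both, at 309 CPM of miR-100-5p and 831 CPM of miR-99b-5p. Both thus had HFoleic libraries 9 to 11 near reference and the other HFoleic libraries near HFepa, as miR-501-3p did.

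**Figure D5:**
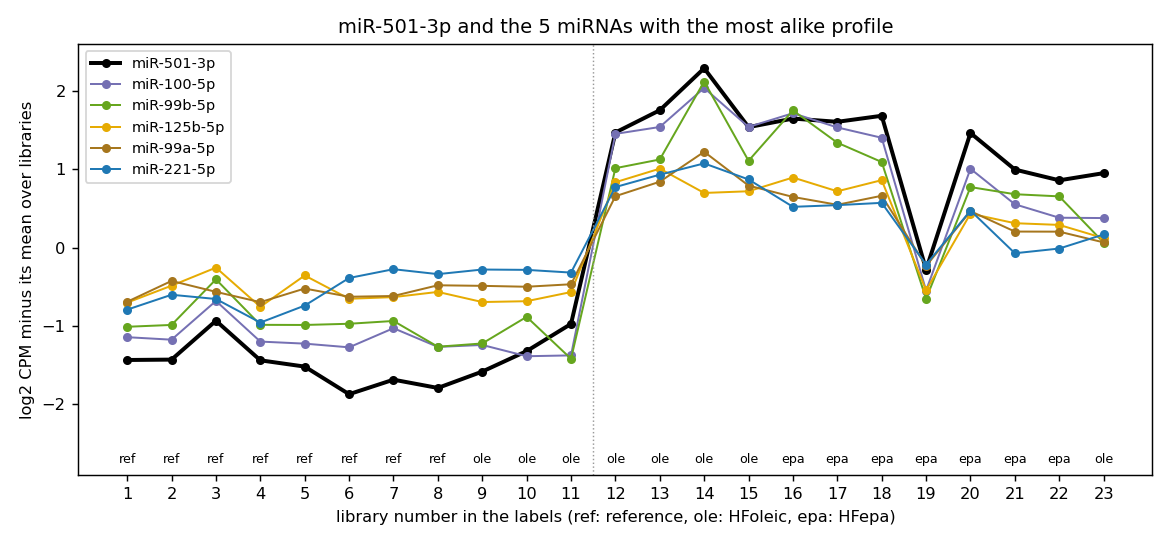
Lines give log2 CPM minus its mean over the 23 libraries for miR-501-3p (thick line) and the 5 miRNAs with the smallest RMS difference from it, by library number, with the group of each library under its point and a dotted line between libraries 11 and 12. All 6 lines lie below their mean in libraries 1 to 11 and step up at library 12, with a dip at HFepa library 19 and lower values again from library 21 on.

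Other miRNAs of the X chromosome, a list of 35 of which 33 were in the table and 21 were tested, gave the chromosome as background. In HFoleic vs. reference 1 of the 21 rose, miR-221-5p, and none fell, with a median log2 FC of 0.06. That is 1 call in 21, where 12.4% of all 386 miRNAs were called. In HFepa vs. reference 3 rose and 3 fell, or 6 calls in 21 where 15.8% of all were called, with a median log2 FC of 0.00. The medians over all 386 miRNAs were -0.00 and -0.06. In HFepa vs. HFoleic none of the 21 was called.

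Markers of other cell types were summed per library beside these results. Muscle miRNAs summed to 2.13 to 220 CPM in reference, 1.59 to 12.8 CPM in HFoleic and 3.09 to 7.60 CPM in HFepa, and pancreas miRNAs to 13.0 to 2021, 9.47 to 34.1 and 10.7 to 18.4 CPM. Their medians lay close together, at 6.13, 5.38 and 4.08 CPM for muscle and 17.2, 15.6 and 15.6 CPM for pancreas. Of these, 1 of 6 muscle and 1 of 4 pancreas miRNAs were tested, and both, miR-133a-3p and miR-375-3p, were called lower in both high-fat groups. Each call rested on 1 reference library, library 4 for miR-133a-3p (205 CPM, the next reference library having 11.4) and library 5 for miR-375-3p (2020 CPM, the next having 57.3). Without library 4 miR-133a-3p had a log2 FC of -0.15 and -0.36 (adjusted p = 0.826 and 0.665 by edgeR), and without library 5 miR-375-3p had -0.32 and -0.62 (adjusted p = 0.560 and 0.240 by edgeR), for HFoleic and HFepa. Leukocyte miRNAs summed to 1760 to 3556 CPM in reference, 1533 to 2439 in HFoleic and 1543 to 2445 in HFepa, with 1 of 6, miR-150-5p, lower in both high-fat groups. Biliary epithelium miRNAs (151 to 1094, 157 to 333 and 191 to 263 CPM) had 1 of 5 called lower in HFepa, miR-429-3p (log2 FC -1.22), and without reference library 3, its highest, the log2 FC was -0.48 (adjusted p = 0.0750 by edgeR). MiR-150-5p was still called in both groups without its highest reference library. However, it was among the 1.3% of all 386 miRNAs that were lower without overlap in libraries 12 to 23 than in 1 to 11. Within HFoleic it was lower without overlap in libraries 12 to 15 and 23 than in 9 to 11 (9.07% of all were). Red blood cell miRNAs (6390 to 15794, 7290 to 11376 and 6391 to 13039 CPM) and miRNAs of stellate cells and fibroblasts (23448 to 42501, 19867 to 28553 and 23477 to 30357 CPM) had none of 5 called. One of the 6 muscle miRNAs was at 0 in all HFepa libraries, and no other listed marker was at 0 throughout a group. No tested marker of any list was called higher in a high-fat group. Of all 386 miRNAs, 4.92% were called higher and 7.51% lower in HFoleic vs. reference, and 5.18% higher and 10.6% lower in HFepa vs. reference. At such shares lists this short can hold none called higher, so the counts say nothing particular about these cell types. The part of these lists in the miR-501-3p and miR-362-5p values was not tested.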

How the data were processed

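Per the labels and the study's methods, total liver RNA was extracted with TRIzol and made into TruSeq small RNA libraries. The authors trimmed adapters, aligned reads with Bowtie within ncPRO-seq and annotated them against miRBase. The submitters' processing notes name bcl2fastq 2.17.1.14 and mm10, and the methods name both GRCm38.p6 and mm9. These builds are not all the same, and which was used was not resolved here. The deposited table gives raw counts per mature miRNA for 23 libraries, beside signal columns that the authors obtained by dividing counts by size factors, and these columns were not used. The files carry no coordinates, which come from RefSeq and GENCODE. The authors' handling of reads that fit more than 1 miRNA is not given in the sources used here.

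Counts were filtered with filterByExpr (1.91 CPM), scaled by TMM and fitted for the 3 groups together with edgeR 4.0.16 (glmQLFit, glmQLFTest) in R 4.3.3. Adjusted p-values cover all 386 miRNAs. The study's methods used quantile-normalised log2 values and compared miRNAs between groups with DEGseq. Quantile normalization was run as an alternative with limma 3.58.1, and DEGseq was not run. DESeq2 1.42.0, other scalings, other filters, a library number term, subsets and leaving out each library were the other alternatives. Arm shares were tested with exact permutation tests (scipy 1.17.1) on libraries with at least 20 reads of the hairpin. The fit was tested on simulated data. P-values measure the spread between libraries of 1 mouse each.

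All 8 members were named, with the other arms of their hairpins, the miRNAs sharing a seed with a member, and the 5 miRNAs outside the cluster with the smallest RMS difference from miR-501-3p (prior count 2). Of the lists (other X chromosome miRNAs, hepatocytes, leukocytes, muscle, pancreas, red blood cells, biliary epithelium, stellate cells and fibroblasts) only counts, medians and sums were given, with names where 5 or fewer were called. The members, the lists and the split at library 12 were chosen with earlier results of these data known.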

Additional observations from a re-analysis of the deposited data

Results flagged for a closer look

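Among 33 groups of 7 or 8 libraries checked, 2 held a library that stood apart from the rest by Dixon's criterion, and chance alone gives about 1 group in 20. In reference, library 3 had the highest miR-501-3p, 15.4 CPM, with a gap to the next library of 0.614 of the group's range, and it was still below the lowest HFepa library. In HFepa, the 3p arm of mir-501 had its lowest share, 98.7%, in library 22 (231 reads, 95% Wilson interval 96.3% to 99.6%), with a gap of 0.577 of the range.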

How the results depend on the processing

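The count of neighbours called, 1 in each comparison with reference, became 0 in both when at least 10 counts were asked of every library, where miR-362-5p was no longer tested, and 0 in both with the library number term (1 and 0 of 6 at an unadjusted p under 0.05 by edgeR). It was 0 for HFoleic in libraries 1 to 11 alone. DESeq2, upper-quartile and library-size scaling, quantile normalization with limma, no filter and 2 groups alone gave 1 in both. Leaving out each library gave 1 to 1 for HFoleic and 1 to 2 for HFepa, the second call being miR-362-3p without HFepa library 20, and 0 to 0 members for HFepa vs. HFoleic, which stayed at 0 under every alternative run. The calls over all miRNAs varied more. For HFoleic and HFepa against reference they were 25 and 46 of 386 with DESeq2 and 10 and 25 with quantile normalization. They were 37 and 45 with upper-quartile scaling, 47 and 58 with library-size scaling, and 29 and 43 of 1218 without the filter. The nearness of 1 in 6 to the shares over all miRNAs thus holds for the main fit and not for every alternative.

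The library number term turned the log2 FC of miR-501-3p to 0.22 (HFoleic vs. reference), -0.19 (HFepa vs. reference) and -0.41 (HFepa vs. HFoleic), that of miR-532-5p to 0.034, 0.088 and 0.054, that of miR-532-3p to 0.20 and of miR-188-5p to 0.30 (HFepa vs. reference), and that of miR-362-5p to -0.23 (HFepa vs. HFoleic). In libraries 1 to 11 alone miR-532-5p had 0.042. In libraries 12 to 23 alone HFepa vs. HFoleic gave -0.41 for miR-501-3p, 0.063 for miR-532-5p and -0.22 for miR-362-5p. Other turned signs concerned values near 0 in HFoleic vs. reference: miR-500-3p with upper-quartile factors (0.077), quantile normalization (0.078), at least 10 counts (0.0085) and 2 groups alone (0.00038), miR-532-3p (-0.047) and miR-188-5p (-0.018) with library size alone. MiR-532-3p also turned to 0.0098 in HFepa vs. reference with quantile normalization. The cause was not tested.

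Leaving out each library gave -0.080 to 0.10 for miR-500-3p, -0.019 to 0.11 for miR-532-3p and -0.018 to 0.22 for miR-188-5p in HFoleic vs. reference, and -0.067 to 0.15 for miR-362-5p and -0.0094 to 0.47 for miR-501-3p in HFepa vs. HFoleic. MiR-362-5p was called without each of the 23 libraries, at 1.05 to 1.29 in HFoleic and 1.12 to 1.35 in HFepa. The mir-362 share in HFoleic differed from reference by -4.05 points in libraries 1 to 11 alone and lost its call. Without 1 library in turn its HFepa vs. HFoleic difference ran from -0.21 to 2.02 points.

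Depth limits miR-501-5p, miR-500-5p and miR-188-3p, and miR-362-5p rests on 3 to 26 counts per library. Library number and diet cannot be told apart outside HFoleic. Leaving out the highest reference library of each called marker of another cell type was chosen after seeing the data. No paired analysis was possible because the labels give no replicate numbers shared between groups.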

Other observations

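After the values were seen, the 5 letters ACCCG were noticed in miR-501-3p and in 3 of the 5 miRNAs with the most alike profile. The letters were searched on the given strand of the mature sequences, without overlapping matches. They occurred in 6 of the 333 tested miRNAs with a sequence, or 1.80%. Of these 6, the 4 named miR-100-5p, miR-501-3p, miR-99a-5p and miR-99b-5p were higher without overlap in HFoleic libraries 12 to 15 and 23 than in 9 to 11, by 2.82, 2.98, 1.25 and 2.39 on the log2 scale of mean CPM. The other 2, miR-342-3p (0.05) and miR-1247-5p (-0.95), overlapped. Of all 386 tested miRNAs, 9.59% were higher without overlap in this split. MiR-100-5p, miR-99a-5p and miR-99b-5p belong to the same family and share the seed ACCCGUA, which holds the letters, so they are not separate cases. The median over the 6 was 1.82, beside 0.03 over all 333. Among the 7 cluster members with a sequence only miR-501-3p holds the letters, and miR-500-3p, which differs from it at 4 of 22 bases, does not. The same 5 letters also occur in the reverse complement of the 3′ adapter that the study's methods give for library preparation, and any part of the adapter in the values of libraries 12 to 23 was not tested. The letters were chosen by their values and are a description.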
